A study of Homo sapiens with 21 samples.

Results

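Cell-cell and cell-matrix anchorage was followed through 10 genes of desmosomes and hemidesmosomes, DSG2, DSG3, DSC2, DSC3, JUP, PKP1, PKP3, DSP, PLEC and COL17A1. They were picked by gene symbol, and each of the 10 was present in each of the 3 deposited tables, which held 17756 gene names for mRNA of the chromosome 3 set, 20036 for mRNA of the chromosome 8 set and 19854 for footprints of ribosomes (RPF, ribosome-protected fragments, pieces of mRNA that a ribosome covered). All 10 passed the filters on low values in every test. The material was a human lung epithelial cell line, not named further in the labels, in which a chromosome arm had been lost or gained on an isogenic background. The mRNA of the chromosome 3 set came from 3p loss cells, 3q gain cells and Chr3 WT cells, the RPF from 3p loss cells and cells labelled 3p WT, and the mRNA of the chromosome 8 set from 8p loss and 8p WT cells. The chromosome 8 set was sequenced on another platform than the chromosome 3 mRNA, so levels are compared within a set. Each of the 7 groups had 3 libraries, called biological replicates in the labels. The RPF cells were given cycloheximide, which stalls ribosomes on mRNA, for 5 min before lysis, and the labels give no agent for the mRNA cells. The labels do not say whether a genotype was 1 clone, and mRNA and RPF came from separate preparations.

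Desmosomes rivet neighbouring epithelial cells together. Desmogleins and desmocollins, the desmosomal cadherins, bridge the gap between cells, plakoglobin and the plakophilins bind their tails inside the cell, and desmoplakin ties that plaque to keratin filaments. Hemidesmosomes anchor basal epithelial cells to the basement membrane. In these, plectin and dystonin link keratins to the integrin α6β4 and to type XVII collagen, which bind laminin outside the cell, and type VII collagen fibrils hold the basement membrane to the tissue beneath. DSG3 and DSC3 are known from basal cells of stratified and airway epithelia, and PKP1 from stratified epithelia. DSG2 and DSC2 are found in nearly all epithelia.

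RPF libraries held 4622326 to 13607875 counts in 3p loss cells and 5630920 to 8521557 in 3p WT cells, and a gene of the set had at least 336 counts in each library. The mRNA values were read as TPM (transcript abundance scaled for length and depth), and their depth is unknown. The lost arms were low in their libraries, with a median log2 change of -0.89 over 321 tested 3p genes in 3p loss mRNA, -0.97 over 324 in 3p loss RPF and -0.83 over 146 8p genes in 8p loss mRNA, and the median of 324 3q genes was 0.51 in 3q gain mRNA. None of the 10 genes lies on chromosome 3 or on 8p. All 6 epithelial markers were present in every group, all 5 markers of differentiated airway and alveolar cells were under 1 TPM or CPM throughout, and the leukocyte markers PTPRC and CD3E were under 1. A further leukocyte marker, CD68, a lysosomal membrane protein gene best known from macrophages, was at 8.01 to 24.3 TPM in 3p loss, 12.05 to 12.8 in 3q gain and 12.4 to 16.4 in Chr3 WT mRNA, at 57.8 to 83.3 TPM in 8p loss and 36.4 to 58.8 in 8p WT mRNA, and at 6.30 to 9.55 CPM in 3p loss and 12.5 to 14.35 in 3p WT RPF. The part of the fibroblast and leukocyte markers in the members' values was not tested. The 7 fibroblast markers summed to 8.06 to 123.6 TPM in 3p loss, 2.75 to 6.83 in 3q gain and 5.19 to 6.38 in Chr3 WT mRNA, to 9.10 to 9.44 TPM in 8p loss and 5.39 to 6.52 in 8p WT mRNA, and to 62.6 to 72.5 CPM in 3p loss and 22.4 to 24.4 in 3p WT RPF. Of these, COL1A2, COL3A1, PDGFRA and PDGFRB were under 1 TPM or CPM throughout. DCN alone was at 2.96 to 113.9 TPM in 3p loss mRNA and 39.4 to 49.0 CPM in 3p loss RPF. RPF replicates 1 and 2 of each genotype lay close to each other, with a chi-square per degree of freedom of 1.38 in 3p loss and 1.34 in 3p WT cells, against 7.05 to 12.9 for the pairs with replicate 3, so the spread among RPF replicates may be understated. In bulk RNA, fewer cells that express a gene and less RNA per cell cannot be told apart.

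In footprints of 3p loss cells the members went both ways. All 4 desmosomal cadherin genes rose, PLEC, COL17A1, PKP3 and JUP fell, PKP1 rose and DSP did not pass the test. By edgeR's quasi-likelihood test with Benjamini-Hochberg adjustment at 0.05, 5 of 10 members rose and 4 fell. The same test called 69.3% of 11425 genes, 35.1% higher and 34.2% lower, so most genes were called in this comparison and the members' count stands against that share. The values below are CPM (counts scaled to a fixed library total, with TMM factors), which are not corrected for gene length and compare libraries but not genes.

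**Figure D1:**
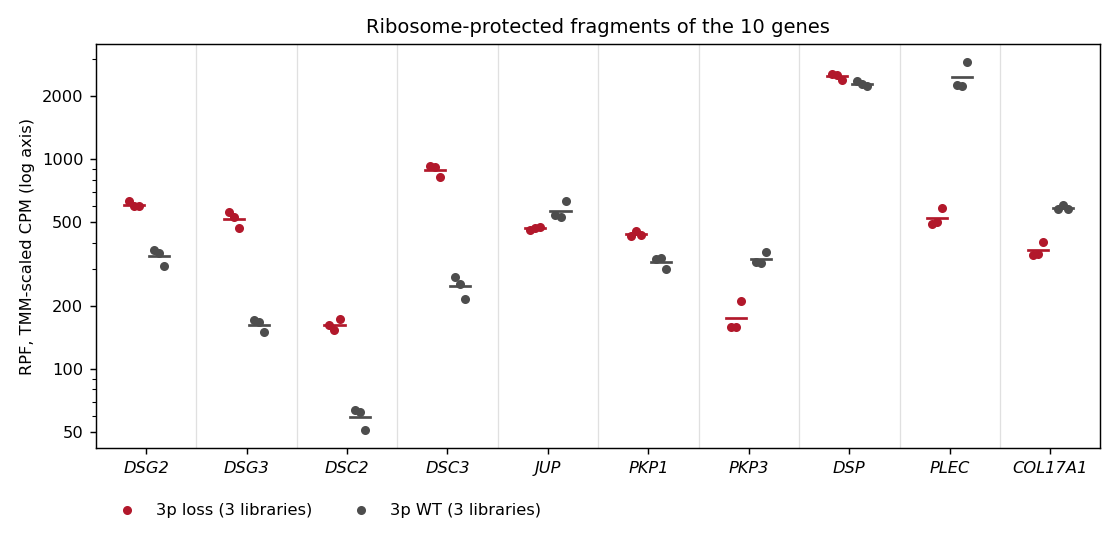
Footprints of the 10 genes. The vertical log axis gives TMM-scaled CPM, each point is 1 library, short lines are means, and 3p loss cells stand left of 3p WT cells. The 4 cadherin genes were higher in all 3p loss libraries, and PLEC was at 492 to 587 CPM in 3p loss and 2231 to 2898 in 3p WT libraries.

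DSC3, a desmocollin of basal cells, had 925, 918 and 824 CPM in the 3p loss libraries, against 276, 255 and 217 CPM in the 3p WT libraries. The log2 change was 1.85 ± 0.10 (SE, n = 3 each, edgeR adjusted p = 1.59e-08), a fold of 3.60. Its groups did not overlap, and neither did those of any other member. The share of all tested genes without overlap was not counted in any comparison, so a lack of overlap sets no member apart. DSG3, the desmoglein known as the pemphigus vulgaris antigen, had 561, 531 and 471 CPM in 3p loss and 172, 167 and 150.3 CPM in 3p WT libraries. This was a log2 change of 1.69 ± 0.10 (edgeR adjusted p = 2.24e-08), with the lowest 3p loss library above the highest 3p WT library by a wide margin. The cadherins of simple epithelia moved the same way by less. DSC2 had 162, 154 and 174 CPM in 3p loss and 64.0, 62.7 and 51.3 CPM in 3p WT libraries (log2 change 1.47 ± 0.11, edgeR adjusted p = 2.6e-07). DSG2 had 630.2, 599 and 597 CPM in 3p loss and 371, 356 and 312 CPM in 3p WT libraries (log2 change 0.83 ± 0.09, edgeR adjusted p = 3.8e-06). In both genes all 3 libraries of 3p loss cells were high.

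The plaque genes did not move together. PKP1, a plakophilin that clusters cadherins at the membrane, had 430.0, 456 and 435 CPM in 3p loss and 334, 337 and 299 CPM in 3p WT libraries. It rose by 0.46 ± 0.08 on the log2 scale (edgeR adjusted p = 0.000351). PKP3, a plakophilin of most epithelia, had 159, 159.6 and 210.3 CPM in 3p loss and 324, 321 and 360.0 CPM in 3p WT libraries, a log2 change of -0.91 ± 0.11 (edgeR adjusted p = 1.64e-05). The 2 plakophilins thus stood on opposite sides of 0. JUP, which encodes plakoglobin, the armadillo protein shared by desmosomes and adherens junctions, had 459, 472 and 478 CPM in 3p loss and 541, 531 and 632 CPM in 3p WT libraries. Its log2 change of -0.26 ± 0.09 (edgeR adjusted p = 0.0176) was the smallest one called, and the call ended with RPF replicates 1 and 2 summed (adjusted p = 0.104), without 3p loss replicate 1 (0.0702) and without 3p loss replicate 2 (0.0517). DSP, desmoplakin, had 2545, 2527 and 2398 CPM in 3p loss and 2365, 2293 and 2228 CPM in 3p WT libraries, with a log2 value of 0.13 ± 0.07 (edgeR adjusted p = 0.108). The DSP groups did not overlap but lay close, and DSP passed without 3p loss replicate 3 (0.16, adjusted p = 0.0102).

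The hemidesmosome genes were low in 3p loss footprints. PLEC, which encodes the cytolinker plectin, had 492, 505 and 587 CPM in 3p loss and 2264, 2231 and 2898 CPM in 3p WT libraries. The log2 change of -2.21 ± 0.11 (edgeR adjusted p = 8.22e-09) was the largest of the set in size, a fold of 0.217. COL17A1, type XVII collagen, had 351, 352 and 405 CPM in 3p loss and 580.5, 603 and 577 CPM in 3p WT libraries, a log2 change of -0.65 ± 0.09 (edgeR adjusted p = 2.21e-05). The other hemidesmosome and anchoring genes followed here were DST, ITGA6, ITGB4, CD151, LAMA3, LAMB3 and COL7A1, and all 7 of them fell in footprints, with a median log2 change of -1.10 beside 0.02 over all tested genes. ITGB4, the integrin β4 subunit, averaged 652 ± 53.1 CPM in 3p loss and 1579.9 ± 218 CPM in 3p WT libraries (SD, n = 3 each), a log2 change of -1.26 ± 0.10. LAMA3, a laminin α3 chain, changed by -2.10 ± 0.09, ITGA6, the α6 partner of ITGB4, by -0.85 ± 0.09, and DST, dystonin, by -0.63 ± 0.08 (edgeR adjusted p at most 1.44e-05 in these 4 genes). COL7A1, type VII collagen, changed by -1.82 ± 0.09, and it lies on the lost arm 3p, where the median was -0.97.

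**Figure D2:**
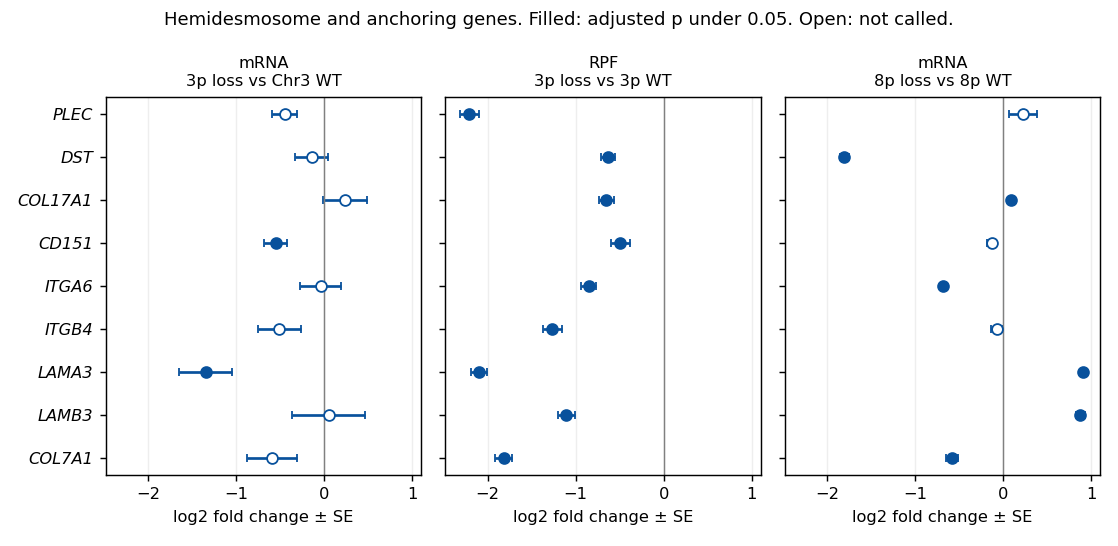
Hemidesmosome and anchoring genes. Each panel gives the log2 fold change (horizontal axis, ± SE, n = 3 libraries a group) of a comparison, with filled points for genes called at an adjusted p under 0.05. All 9 genes lie below 0 in 3p loss footprints, and the laminin genes LAMA3 and LAMB3 lie above 0 in 8p loss mRNA.

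Of 10 other desmosome genes, 7 could be tested in footprints, of which 3 rose and 4 fell, with a median log2 change of -0.85. PPL, the plakin periplakin, averaged 513 ± 16.4 CPM in 3p loss and 159 ± 12.9 CPM in 3p WT libraries and rose by 1.70 ± 0.09 on the log2 scale. PERP, a tetraspan membrane protein of desmosomes, rose by 1.27 ± 0.15. PKP2 and PKP4, further armadillo proteins of the plakophilin group, changed by -0.85 ± 0.12 and -0.91 ± 0.12 (edgeR adjusted p at most 3.13e-05 in these 4 genes). PPL and PERP thus went with the cadherins in direction, and PKP2 and PKP4 with PKP3. Of 10 listed tight junction genes 6 could be tested in footprints, and 5 of these were called higher and none lower. Among them were CLDN4 (log2 change 3.55 ± 0.25), CGN (1.76 ± 0.14), CLDN1 (1.46 ± 0.14) and F11R (1.17 ± 0.11), with edgeR adjusted p at most 1.89e-06. TJP1, OCLN, CLDN7 and MARVELD2 were not tested there. In 3p loss mRNA these lay at -0.35, -0.39, -0.34 and -0.37, and none was called. Of 10 adherens junction genes, 2 rose and 3 fell. CDH1, E-cadherin, rose by 0.55 ± 0.09, and CTNNB1, the 3p gene of β-catenin and a close relative of plakoglobin, changed by -1.02 ± 0.08. The 11 keratins, whose close paralogs can share reads, split into 5 higher and 6 lower.

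In mRNA, 3p loss cells showed higher PKP1 and JUP, and no member was called lower. By limma on log2(TPM + 1), 2 of 10 members rose and 8 did not pass, beside 15.0% of 11225 genes called, 6.17% higher and 8.8% lower. Of the called genes 41.2% were higher, or 56.8% with each library centred on its median. The median log2 change of the 10 genes was 0.49, beside 0.01 over all tested genes. PKP1 had 434, 289 and 282 TPM in 3p loss and 101, 169 and 199.7 TPM in Chr3 WT libraries, a log2 change of 1.12 ± 0.27 (limma adjusted p = 0.0214). Its groups did not overlap, yet the call ended without 3p loss replicate 1, the highest library (0.92, adjusted p = 0.0761). JUP had 436, 408 and 366 TPM in 3p loss and 241, 246 and 306 TPM in Chr3 WT libraries, a log2 change of 0.61 ± 0.13 (limma adjusted p = 0.0117), again without overlap.

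**Figure D3:**
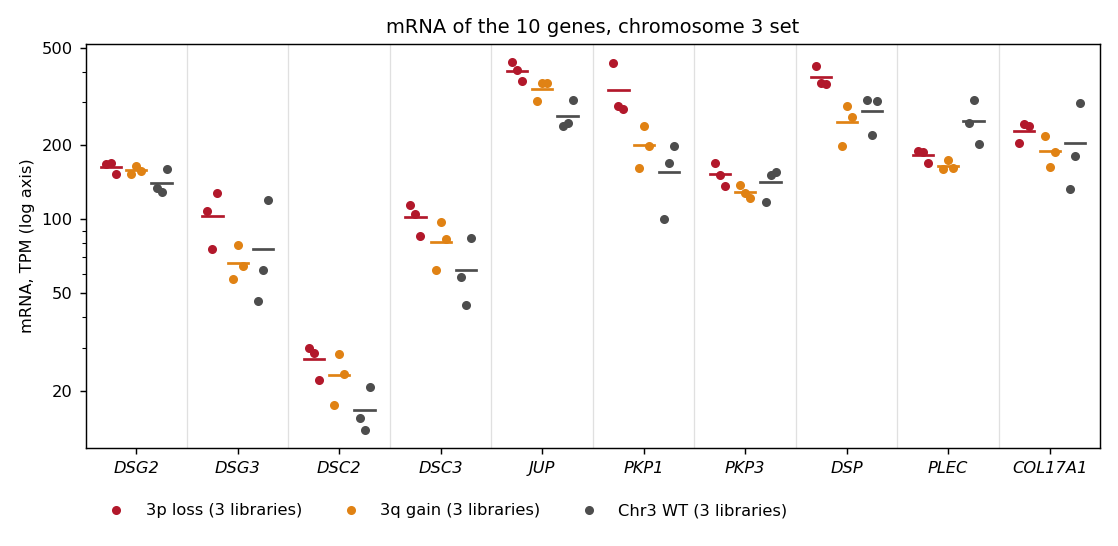
mRNA of the 10 genes in the chromosome 3 set. The vertical log axis gives TPM, each point is 1 library, short lines are means, and groups run 3p loss, 3q gain, Chr3 WT from left to right. JUP and PKP1 of 3p loss cells lie above Chr3 WT, and a Chr3 WT library of DSG3 and COL17A1 lies at or near the top of all 9.

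Several other members had values on the side of a rise without passing. DSC3 had 115, 105 and 85.5 TPM in 3p loss and 58.3, 44.7 and 84.0 TPM in Chr3 WT libraries (0.74 ± 0.24, limma adjusted p = 0.067). DSC2 had 30.0, 28.5 and 22.1 TPM in 3p loss and 15.5, 13.9 and 20.7 TPM in Chr3 WT libraries (0.66 ± 0.21, adjusted p = 0.0652). DSP had 423, 358 and 357 TPM in 3p loss and 306, 219.7 and 304 TPM in Chr3 WT libraries (0.47 ± 0.17, adjusted p = 0.101). In these 3 genes the 3p loss and Chr3 WT libraries did not overlap, and with each library centred on its median DSC2, DSC3 and DSP passed, at 0.75, 0.82 and 0.55 (limma adjusted p = 0.0309, 0.0327 and 0.0494). PLEC had 189, 188 and 169 TPM in 3p loss and 248, 307 and 203 TPM in Chr3 WT libraries (-0.45 ± 0.14, adjusted p = 0.0643), also without overlap. DSG3 had 108, 75.6 and 127 TPM in 3p loss and 46.4, 62.3 and 119 TPM in Chr3 WT libraries, and these overlapped because Chr3 WT replicate 3 was high. Without that library, DSC3 (0.97, adjusted p = 0.0273) and PLEC (-0.60, adjusted p = 0.0217) passed and 4 members were called. DSG2, PKP3 and COL17A1 overlapped between the groups, with log2 values of 0.22 ± 0.11, 0.11 ± 0.14 and 0.24 ± 0.25.

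Among the genes around the members, PERP rose in 3p loss mRNA, at 420.4 ± 30.8 TPM in 3p loss and 251 ± 44.4 TPM in Chr3 WT libraries (0.75 ± 0.15, limma adjusted p = 0.0108), the 1 call among 6 tested other desmosome genes. Of the 7 other hemidesmosome and anchoring genes 2 fell and none rose, with a median of -0.51. LAMA3 changed by -1.35 ± 0.30 (limma adjusted p = 0.0172), a call that ended without Chr3 WT replicate 3, 3p loss replicate 1 or 3p loss replicate 3 (up to 0.0629). CD151, a tetraspanin that binds laminin receptors, changed by -0.55 ± 0.13 (adjusted p = 0.0238), and its call ended without Chr3 WT replicate 3 or 3p loss replicate 1 (up to 0.0821). The β-catenin gene CTNNB1 fell to 102 ± 13.1 TPM in 3p loss, against 254 ± 23.3 TPM in Chr3 WT libraries (-1.32 ± 0.12), while JUP, its relative on chromosome 17, rose. Keratins split into 3 higher and 3 lower of 11, with KRT19 at 2.86 ± 0.45 and KRT14 at -2.87 ± 0.84. The KRT14 call (limma adjusted p = 0.0477) stood in 3 of 13 alternatives.

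In 3q gain mRNA 1 of 10 members was called, beside 5.27% of 11225 genes, 2.6% higher and 2.67% lower. PLEC fell, with 159.7, 175 and 161 TPM in 3q gain and 248, 307 and 203 TPM in Chr3 WT libraries (log2 change -0.59 ± 0.14, limma adjusted p = 0.0478). The groups did not overlap, but the call stood at the threshold and ended in 9 of 13 alternatives, with adjusted p-values up to 0.157. JUP had 304, 358 and 358 TPM in 3q gain libraries (0.37 ± 0.13, adjusted p = 0.121). The other 8 members had log2 values from -0.15 in DSP to 0.44 in DSC2 and none passed. The comparisons of 3p loss and of 3q gain with Chr3 WT share the Chr3 WT libraries, so the low PLEC values in both rest partly on the same 3 libraries.

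Set directly against 3q gain, 3p loss mRNA gave 0 calls among the 10 members in limma, with 2 members at an unadjusted p under 0.05, beside 3.93% of 11225 genes called, 0.873% higher and 3.06% lower. DSP had 423, 358 and 357 TPM in 3p loss and 199, 289.7 and 261 TPM in 3q gain libraries (0.61 ± 0.17, limma adjusted p = 0.0942), with no overlap. PKP1 had 434, 289 and 282 TPM in 3p loss and 162, 239 and 199.8 TPM in 3q gain libraries (0.73 ± 0.27, adjusted p = 0.208). PLEC lay at 0.14 ± 0.14, so the 2 altered genotypes stood close for it.

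Footprints were set beside mRNA by the difference of the log2 changes in 3p loss cells, tested in limma as an interaction of assay and genotype. Relative to mRNA, footprints were higher for all 4 desmosomal cadherins and lower for PLEC, PKP3, COL17A1 and JUP. This gave 4 of 10 members higher and 4 lower, beside 35.8% of 10117 genes called, 17.6% higher and 18.2% lower. The difference was 1.15 ± 0.38 for DSG3, 1.10 ± 0.27 for DSC3, 0.79 ± 0.23 for DSC2 and 0.60 ± 0.16 for DSG2 (limma adjusted p = 0.0302, 0.00669, 0.0177 and 0.00935). On the low side, it was -1.77 ± 0.21 for PLEC, -1.05 ± 0.20 for PKP3, -0.91 ± 0.30 for COL17A1 and -0.88 ± 0.17 for JUP (limma adjusted p = 0.000137, 0.00187, 0.0289 and 0.0016). JUP had log2 changes of opposite sign in the assays, -0.26 ± 0.09 in RPF and 0.61 ± 0.13 in mRNA. PKP1 (-0.68 ± 0.30) and DSP (-0.35 ± 0.18) did not pass (adjusted p = 0.0969 and 0.148).

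**Figure D4:**
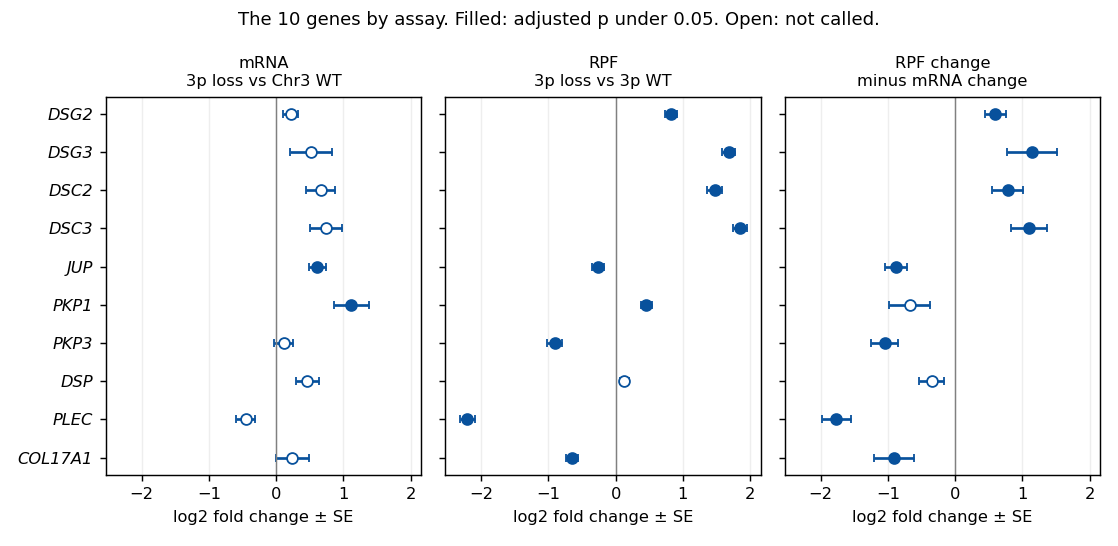
The 10 genes in mRNA, in footprints and in the difference between them, for 3p loss cells against WT cells. The horizontal axis is the log2 fold change or the difference of 2 such changes (± SE, n = 3 libraries a group), and filled points were called at an adjusted p under 0.05. In the right panel the 4 cadherin genes lie above 0 and the plaque and hemidesmosome genes below it.

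The footprint WT cells are labelled 3p WT and the mRNA WT cells Chr3 WT, so a difference between assays and a difference between these WT cells cannot be told apart. With RPF replicates 1 and 2 summed, 5 of the 8 calls stood, those of DSC3, DSG2, PLEC, PKP3 and JUP, while DSG3 (1.16, adjusted p = 0.102), COL17A1 (-0.85, 0.124) and DSC2 (0.88, 0.0533) did not pass. The DSG3 call also ended without either of RPF 3p WT replicates 2 and 3, either of RPF 3p loss replicates 1 and 2, or mRNA 3p loss replicate 2 (adjusted p up to 0.069). The COL17A1 call ended without any one of 5 RPF libraries, all but RPF 3p loss replicate 3, or of mRNA 3p loss replicates 2 and 3 (up to 0.0718), and that of PKP1 arose without mRNA Chr3 WT replicate 3 (-0.88, 0.0311). Among related genes, COL7A1 (-1.23 ± 0.33) and EVPL, the plakin envoplakin (-1.57 ± 0.28), were also called lower in footprints relative to mRNA, as was ITGA6 (-0.82 ± 0.29, limma adjusted p = 0.0397), whose call stood in 6 of 17 alternatives (adjusted p up to 0.152). Of 11 keratins 3 were called lower and 0 higher, among them KRT6A (-2.85 ± 0.24, limma adjusted p = 2.52e-05). Called higher were F11R (1.02 ± 0.18), CDH3, P-cadherin (0.85 ± 0.21), CTNNA1, α-catenin (0.76 ± 0.15), and CLDN1 (3.17 ± 0.28), whose mRNA fell to 12.6 ± 1.21 TPM in 3p loss, against 46.0 ± 15.8 TPM in Chr3 WT libraries.

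In 8p loss cells the desmosome genes were low in mRNA. JUP, DSC3, PKP1, DSG3, DSP and DSC2 fell, DSG2 and COL17A1 rose by small amounts, and PKP3 and PLEC did not pass. Thus 6 of 10 members fell and 2 rose, beside 69.1% of 12302 genes called by limma, 33.1% higher and 36.0% lower. The median log2 change was -0.61 in the 10 genes and -0.01 over all tested genes. JUP had 86.7, 85.1 and 73.2 TPM in 8p loss and 235, 213 and 218 TPM in 8p WT libraries, a log2 change of -1.43 ± 0.07 (limma adjusted p = 4.53e-06) and a fold of 0.370. DSC3 had 48.8, 54.0 and 51.4 TPM in 8p loss and 128, 128 and 129 TPM in 8p WT libraries, a log2 change of -1.31 ± 0.04 (adjusted p = 7.04e-07). These 2 genes fell most, and no 8p loss library of either came near the 8p WT libraries.

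DSG3 had 104, 103 and 108 TPM in 8p loss and 174, 171 and 174 TPM in 8p WT libraries (log2 change -0.72 ± 0.03, limma adjusted p = 1.8e-06). PKP1 had 106, 103 and 104 TPM in 8p loss and 177, 176 and 178 TPM in 8p WT libraries (-0.75 ± 0.03, adjusted p = 1.01e-06). DSP had 148, 156 and 158 TPM in 8p loss and 242, 240.0 and 244 TPM in 8p WT libraries (-0.65 ± 0.03, adjusted p = 3.91e-06). All 3 genes fell by similar amounts, with folds of 0.609, 0.594 and 0.637. DSC2, with 5.72, 6.36 and 6.40 TPM in 8p loss and 9.50, 9.98 and 9.47 TPM in 8p WT libraries, changed by -0.57 ± 0.06 (adjusted p = 0.000165) on the log2(TPM + 1) scale, which understates the change of a gene at this level. DSG2 went the other way, with 201, 196 and 205 TPM in 8p loss and 171, 171 and 173 TPM in 8p WT libraries (0.23 ± 0.03, adjusted p = 0.000309). COL17A1 had 439, 429 and 441 TPM in 8p loss and 408, 403 and 414 TPM in 8p WT libraries (0.09 ± 0.03, adjusted p = 0.0132), a call that ended without 8p WT replicate 2 (0.0632). PKP3 had 104, 126 and 77.7 TPM in 8p loss and 99.0, 92.8 and 85.3 TPM in 8p WT libraries, and PLEC 241, 269 and 182 TPM in 8p loss and 231, 183 and 174 TPM in 8p WT libraries. Their spread in 8p loss cells was wider than that of the other members and the groups overlapped, and both passed without 8p loss replicate 3 (0.31 with adjusted p = 0.0299, and 0.39 with 0.0353).

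**Figure D5:**
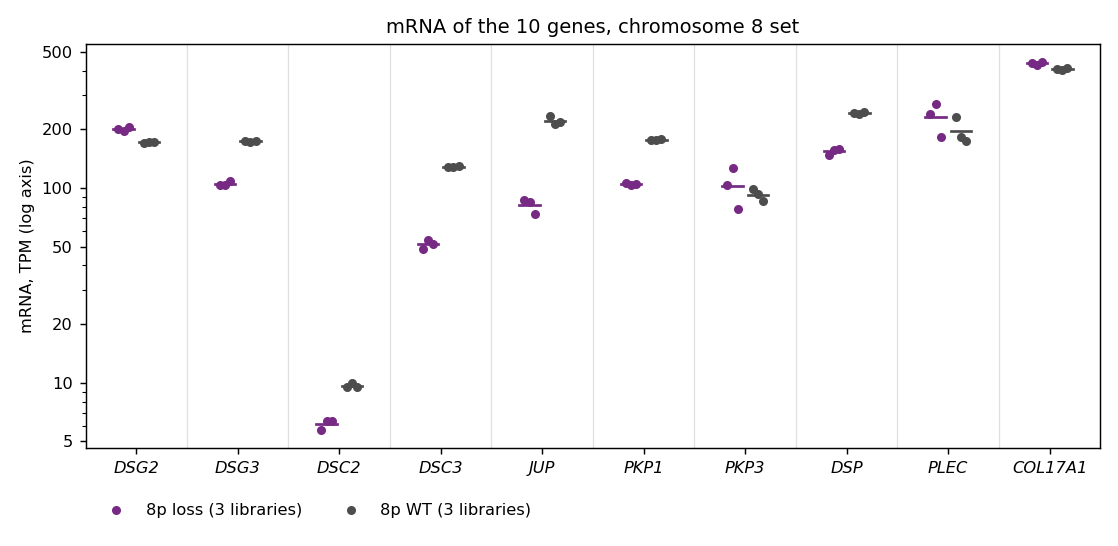
mRNA of the 10 genes in the chromosome 8 set. The vertical log axis gives TPM, each point is 1 library, short lines are means, and 8p loss cells stand left of 8p WT cells. JUP lies at 73.2 to 86.7 TPM in 8p loss and 213 to 235 TPM in 8p WT libraries, while DSG2 and COL17A1 lie slightly higher in 8p loss cells.

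Most of the related desmosome, keratin and tight junction genes were also low in 8p loss mRNA. Of 6 tested other desmosome genes 5 fell and none rose, among them PPL (-1.49 ± 0.04), PERP (-0.96 ± 0.04), PKP2 (-0.92 ± 0.04) and PKP4 (-0.21 ± 0.04). Of 11 keratins 9 fell, with KRT5, a keratin of basal cells, at 1773 ± 17.7 TPM in 8p loss and 6234 ± 209.5 TPM in 8p WT libraries. The 6 epithelial markers, 4 of which are keratins, summed to 2498 to 2570 TPM in 8p loss and 7652 to 8145 TPM in 8p WT libraries. CDH1 fell to 68.1 ± 1.95 TPM in 8p loss, against 362 ± 5.82 TPM in 8p WT libraries (-2.39 ± 0.03). The 10 adherens junction genes, CDH1 among them, split into 4 higher and 6 lower. Of 9 tested tight junction genes 7 fell and none rose. The 7 other hemidesmosome and anchoring genes split into 2 higher and 3 lower. The laminin genes LAMA3 and LAMB3 rose, LAMB3 to 571 ± 11.0 TPM in 8p loss, against 311 ± 21.6 TPM in 8p WT libraries (0.88 ± 0.05), and LAMA3 by 0.91 ± 0.03, while ITGA6 changed by -0.68 ± 0.03 and COL7A1 by -0.58 ± 0.06. All limma adjusted p-values of genes named in this paragraph were at most 0.00159.

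Regulators of epithelial genes were measured beside them. Of 10 listed epithelial transcription and splicing regulators 8 fell and 1 rose in 8p loss mRNA. TP63, the basal cell factor, averaged 57.9 ± 2.35 TPM in 8p loss and 145 ± 2.27 TPM in 8p WT libraries (-1.31 ± 0.04), and the splicing factor gene ESRP1 53.0 ± 0.480 TPM in 8p loss and 148 ± 2.64 TPM in 8p WT libraries (-1.47 ± 0.03). ZEB1, a factor known to repress E-cadherin through E-boxes, averaged 13.4 ± 1.76 TPM in 8p loss and 1.15 ± 0.0696 TPM in 8p WT libraries (2.73 ± 0.10, limma adjusted p = 1.25e-06), and SNAI2, a factor of the same kind, 184 ± 6.40 TPM in 8p loss and 129 ± 2.12 TPM in 8p WT libraries (0.50 ± 0.03, adjusted p = 1.66e-05). In 3p loss footprints, ZEB1 averaged 0.0583 ± 0.101 CPM in 3p loss and 4.16 ± 1.23 CPM in 3p WT libraries and SNAI2 35.7 ± 1.61 CPM in 3p loss and 84.0 ± 7.38 CPM in 3p WT libraries (edgeR adjusted p = 7.66e-06 and 1.54e-06), and ESRP1 rose by 1.56 ± 0.09. ZEB1 lay at the floor of the counts in 3p loss and was low in 3p WT libraries, so its value rests on few counts. Of the 10 listed regulators, 6 rose and 2 fell in those footprints. ZEB1 and SNAI2 come from a list of 6 repressors of epithelial junction genes. In 8p loss mRNA 4 of these could be tested, and 2 rose and 2 were not called. In 3p loss footprints 3 could be tested, and 2 fell and 1 was not called. In 3p loss mRNA none of the 10 regulators and none of 3 tested repressors was called. There SNAI2 lay at -0.30 ± 0.30 and ESRP1 at -0.51 ± 0.22, and ZEB1 was not tested. The part of these factors in the members' values was not tested.

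The sequence before the transcription start is shown for 4 members of the plaque and the cadherins that moved in the comparison above, because 3 of them hold the E-box that ZEB1 and SNAI2 are known to bind and DSC3, which fell, does not. Each is the 250 bases before a RefSeq start on GRCh38.p14, given 5′ to 3′ on the strand of the gene. Capitals mark CAGGTG on either strand, so that CACCTG in capitals is the same motif on the other strand. The positions are chr6:7541421-7541670, plus strand for DSP, chr17:41785977-41786226, minus strand for the second listed start of JUP, chr18:31497927-31498176, plus strand for DSG2 and chr18:31042743-31042992, minus strand for DSC3.
DSP: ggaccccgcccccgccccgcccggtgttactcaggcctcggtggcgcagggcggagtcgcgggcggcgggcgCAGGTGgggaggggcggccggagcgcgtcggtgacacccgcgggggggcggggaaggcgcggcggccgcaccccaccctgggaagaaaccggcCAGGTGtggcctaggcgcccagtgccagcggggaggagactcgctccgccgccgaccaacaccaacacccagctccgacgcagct
JUP: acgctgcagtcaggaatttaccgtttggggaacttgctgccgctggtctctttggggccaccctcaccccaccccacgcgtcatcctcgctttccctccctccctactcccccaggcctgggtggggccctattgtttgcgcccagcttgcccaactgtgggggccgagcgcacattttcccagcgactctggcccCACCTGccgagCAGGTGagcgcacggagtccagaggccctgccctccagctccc
DSG2: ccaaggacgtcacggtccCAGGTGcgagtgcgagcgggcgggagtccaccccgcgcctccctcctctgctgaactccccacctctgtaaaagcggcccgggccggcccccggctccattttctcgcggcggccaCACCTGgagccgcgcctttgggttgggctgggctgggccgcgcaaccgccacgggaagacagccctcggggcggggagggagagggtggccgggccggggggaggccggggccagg
DSC3: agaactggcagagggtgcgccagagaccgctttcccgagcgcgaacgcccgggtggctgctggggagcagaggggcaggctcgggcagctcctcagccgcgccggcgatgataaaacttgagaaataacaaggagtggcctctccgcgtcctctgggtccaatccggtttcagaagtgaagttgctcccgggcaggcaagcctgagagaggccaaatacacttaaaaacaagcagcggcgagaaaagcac

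CAGGTG was present in 17.5% of the 35116 RefSeq promoters of this length. Among the 8 members with a promoter entry, with 10 starts, DSP, DSG2 and the second start of JUP held 2 matches each and the first start of DSC2 held 1, while PKP1, DSG3, DSC3, COL17A1 and the other starts of JUP and DSC2 held none. Matches therefore stood before genes that fell in 8p loss mRNA (JUP, DSP, DSC2) and before DSG2, which rose, and were missing before DSC3, DSG3 and PKP1, which fell. The AP-1 motif TGANTCA, present in 6.57% of promoters, and the grainyhead motif AACCNGTT, present in 1.49%, matched none of the 10. A match is a run of letters and not a measured binding site.

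The balance within each cadherin pair was compared as the log2 ratio of the value + 1 in each library. The values were TPM for mRNA and unscaled counts for footprints. In footprints, DSG3 to DSG2 averaged -0.23 ± 0.098 in 3p loss and -1.08 ± 0.031 in 3p WT libraries (SD, n = 3 each), a difference of 0.85 with no overlap (exact two-sided permutation p = 0.1, the smallest that 3 against 3 allows). In the chromosome 8 set the same ratio averaged -0.93 ± 0.016 in 8p loss and 0.01 ± 0.011 in 8p WT mRNA, a difference of -0.94 with no overlap (exact permutation p = 0.1). DSC3 to DSC2 differed by 0.38 between 3p loss and 3p WT footprints and by -0.73 between 8p loss and 8p WT mRNA (exact permutation p = 0.1 each). The ratio of the basal form to its partner was thus higher in 3p loss than in 3p WT footprints and lower in 8p loss than in 8p WT mRNA, for both pairs. In mRNA of the chromosome 3 set the ratios overlapped between genotypes, with differences of 0.31 for DSG3 to DSG2 and 0.07 for DSC3 to DSC2 between 3p loss and Chr3 WT (exact permutation p = 0.5 and 0.7), apart from 0.12 for DSC3 to DSC2 between 3p loss and 3q gain (p = 0.1). The 10 ratio tests were not adjusted, since none can pass 0.05.

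By level in TPM, which is scaled for length, JUP had the highest mean in 3p loss mRNA at 403 ± 35.3 TPM, where its libraries overlapped those of DSP and PKP1, and in 3q gain mRNA at 340.0 ± 31.2 TPM, where they overlapped no other member's. DSP had the highest mean in Chr3 WT mRNA at 277 ± 49.2 TPM (SD, n = 3 each). In Chr3 WT libraries each member's values overlapped those of the next in order from DSP through JUP, PLEC, COL17A1, PKP1, PKP3 and DSG2, so that order was not resolved. DSG3 and DSC3 followed at 76.0 ± 38.4 and 62.3 ± 20.0 TPM and also overlapped each other. DSC2 was last in all 5 mRNA groups, from 6.16 ± 0.380 TPM in 8p loss to 26.9 ± 4.21 TPM in 3p loss libraries. In the chromosome 8 set COL17A1 led in both groups, at 436 ± 6.46 TPM in 8p loss and 408 ± 5.19 TPM in 8p WT libraries. There JUP ranked 8 of 10 in 8p loss mRNA, at 81.7 ± 7.41 TPM, and 3 of 10 in 8p WT mRNA, at 222 ± 11.6 TPM, where it overlapped PLEC, the next in order. In 8p loss mRNA each member overlapped the next from DSG3 through PKP1 and PKP3 to JUP, so that order was not resolved.

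The cadherin genes are neighbours on chromosome 18 (GRCh38.p14), DSC3 at chr18:30989365-31042742, DSC2 at chr18:31058840-31102421, DSG3 at chr18:31447741-31478702 and DSG2 at chr18:31498177-31549008. The tested genes within 10 Mb of DSC3 and DSC2, members left out, had a median log2 change of 0.15 in 3p loss footprints, 0.26 in the difference of footprints and mRNA and 0.03 in 8p loss mRNA. The rise of the 4 cadherins in footprints, at 0.83 to 1.85, was thus larger than the median of their neighbourhood. PLEC lies on 8q at chr8:143915153-143976745, and its 55 tested neighbours had a median of -0.68 in 3p loss footprints, against 0.26 over all of 8q and -2.21 in PLEC. The median of the PLEC neighbours was -0.17 in 3p loss mRNA, -0.20 in 3q gain mRNA and 0.24 in 8p loss mRNA. COL17A1, at chr10:104031286-104085880, had neighbours with a median of 0.33 in 3p loss and 0.31 in 3q gain mRNA and -0.41 in the difference between assays. The remaining members lie apart, PKP1 at chr1:201283506-201332989, DSP at chr6:7541671-7586714, PKP3 at chr11:392596-404908 and JUP at chr17:41754609-41786711, and their neighbours in footprints had medians from -0.12 around JUP to 0.11 around PKP1. The part of these segments in the members' values was not tested.

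The gene most like each member over the 9 chromosome 3 mRNA libraries was sought among genes averaging 5 TPM or more, by Pearson's r of log2(TPM + 1), as a description of libraries that share their normalization and genotype. Each r is the highest of many candidates, so a high value is favoured by the search. Over the 6 chromosome 8 libraries, r of genes that differ between 8p loss and 8p WT mostly follows the direction of that difference. For PKP1 it was PERP, another desmosome gene, with r = 0.971 over these 9 libraries and 0.994 over the 6 chromosome 8 libraries. For DSG3 it was the kallikrein gene KLK11 (0.947 and 0.979), for DSC2 GMNN (0.951 and 0.964) and for DSC3 RMND5B (0.951 and 0.968). For JUP it was ME1, the gene of malic enzyme (0.988), but over the chromosome 8 libraries their r was -0.969. The sign also turned for DSG2 with KCTD1, a chromosome 18 gene (0.958 and -0.769), and for COL17A1 with DUSP14 (0.920 and -0.891). PLEC went with SMTN, smoothelin, at 0.979 and 0.705, DSP with CRYAB at 0.942 and 0.745, and PKP3 with BOLA2B at 0.965 and -0.00895.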

How the data were processed

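Per the labels, mRNA was poly(A)-selected with a directional kit, and footprints were isolated with RiboLace Pro after cycloheximide. The submitters' processing notes name GRCh38. The aligner, the program that counted and the annotation are not given in the sources used here. Whole-number counts per gene, with no normalization, made up the deposited RPF table, of which 1061 rows named by transcript (0.432 to 0.568% of the counts) were left out. The deposited mRNA tables held values scaled by the authors, read as TPM from their column sums (861114 to 916783). No unit was named, and FPKM is a similar scale. In the chromosome 8 table, 30 rows sharing a name were summed. Unused columns of per-sample values came to 0.

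For mRNA, limma 3.58.1 with its trend option was run under R 4.3.3 on log2(TPM + 1) of genes averaging 1 TPM or more, with the 9 chromosome 3 libraries in 1 fit and the 6 chromosome 8 libraries in another. RPF counts were tested in edgeR 4.0.16 (quasi-likelihood F test, TMM, filterByExpr, prior count 2). The difference between assays was the limma interaction on log2(CPM + 1) and log2(TPM + 1). Benjamini-Hochberg adjusted p under 0.05 over all tested genes was a call. Scripts were tested on simulated data. The labels do not say that replicate numbers mark shared material. In 3p loss and 3q gain mRNA all 3 same-numbered pairs had correlated deviations from their group means (r = 0.144 to 0.192), so those numbers were taken as possible pairs from the data. Differently numbered libraries were not compared for reference. The main fits held no term for pairs, and a replicate block was run as an alternative. Promoters and positions are RefSeq's on GRCh38.p14, and arm boundaries were put at 91 Mb (3p and 3q) and 45 Mb (8p and 8q).

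All 10 members are reported in every comparison. From each related gene list, the rule named up to 4 called genes of highest level, or 2 where none was called. Not every gene so named is printed, and most of the keratins are not. One gene of the hemidesmosome list and 1 leukocyte marker are not reported here and were left out of the lists. COL7A1 in footprints was chosen after its values were seen, and CLDN1 mRNA is given beside its footprints. The members and lists were chosen with earlier results of these data known.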

Additional observations from a re-analysis of the deposited data

Results flagged for a closer look

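In 5 members the mRNA values of the arm losses lay on opposite sides of their WT values, with every 3p loss mRNA library above every Chr3 WT library and every 8p loss library below every 8p WT library. These 5 were picked by this pattern, and its share over all genes was not counted. By limma, 15.0% of all tested genes were called in 3p loss mRNA and 69.1% in 8p loss mRNA. The log2 value of DSC2 was 0.66 in 3p loss and -0.57 in 8p loss, and that of DSC3 was 0.74 in 3p loss and -1.31 in 8p loss. The margin in 3p loss mRNA was narrow for both. The lowest 3p loss and highest Chr3 WT libraries were at 22.08 and 20.67 TPM for DSC2 and 85.54 and 84.02 TPM for DSC3. DSP stood at 0.47 in 3p loss and -0.65 in 8p loss, PKP1 at 1.12 in 3p loss and -0.75 in 8p loss, and JUP at 0.61 in 3p loss and -1.43 in 8p loss. The difference between the arm losses was not tested, because the mRNA tables were normalized separately and came from different sequencing platforms. In 3p loss mRNA only PKP1 and JUP of these 5 passed limma's adjusted p threshold of 0.05.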

How the results depend on the processing

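The number of members called in 3p loss mRNA was 2, and 5 with median centring and 1 to 4 with each library left out, while the count over all genes fell to 990 without 3p loss replicate 1 and 1062 without Chr3 WT replicate 3, against 1681. The single call in 3q gain mRNA became 0 with no filter on low values, median centring, limma without trend or only the compared groups fitted, and 0 to 1 with each library left out, where calls over all genes ran from 110 to 634, against 592. For 3p loss against 3q gain, the count over all genes ran from 187 to 462 with each library left out, against 441. With RPF replicates 1 and 2 summed, an alternative chosen after seeing the data, 5 members and 2076 genes were called in the difference between assays, against 8 and 3625. The log2 ratio of DSC3 to DSC2 in 8p loss mRNA was -0.68 with pseudocount 0.1. Leaving out each library gave log2 ranges across 0 for the ratio of DSG3 to DSG2 in 3q gain (-0.518 to 0.0237), the ratio of DSC3 to DSC2 in 3p loss (-0.0219 to 0.154) and 3q gain (-0.142 to 0.0338), and for PKP3 (-0.0161 to 0.191) and COL17A1 (-0.0222 to 0.557) in 3p loss, DSG3 (-0.38 to 0.29), DSP (-0.305 to 0.00836), COL17A1 (-0.30 to 0.28) and CD151 (-0.195 to 0.0112) in 3q gain, PPL in 3p loss against 3q gain (-0.14 to 0.39) and PKP3 in 8p loss (-0.0358 to 0.311), none of them called. The cause of these changes was not tested. Replicate numbers were taken to pair samples only between 3p loss and 3q gain mRNA, where a replicate block left 0 members called and gave 351 calls over all genes, against 441. Elsewhere at least 1 same-numbered pair had a correlation of deviations at or under 0.1 (-0.166 to 0.107 for 3p loss or 3q gain with Chr3 WT mRNA, 0.0348 to 0.305 for 8p loss with 8p WT mRNA and 0.0381 to 0.167 for 3p loss with 3p WT RPF), and the samples share a number. With a replicate block, 10 members were called in RPF, DSP being added (0.13, edgeR adjusted p = 0.045), and 7 in the difference between assays, DSC2 not passing (limma adjusted p = 0.0527), while the other member counts were as without it. RPF counts limit the precision of DSC2 most (336 to 2513 counts a library), intervals and tests cover 3 libraries a group, and the depth behind TPM is unknown.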

Other observations

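Promoter base composition differed among the members, with 78.0% GC before DSP and 75.2% before DSG2, against 42.8% before DSG3 and 40.4% before COL17A1. Over all tested genes with a RefSeq promoter, the median log2 change in 3p loss footprints was 0.14 in the fifth of lowest GC and -0.24 in the fifth of highest GC. Of these 4 members, DSP (log2 value 0.13) was not called in these footprints, DSG2 (0.83) and DSG3 (1.69) rose, and COL17A1 (-0.65) fell. The part of promoter composition in these values was not tested.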
